A study of Mus musculus with 54 samples.

Results

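The report is on 31 mouse genes for forkhead, T-box and other mesoderm transcription factors, picked by name out of the 55487 gene IDs counted in every library and followed through all 18 groups of the study. They were 13 forkhead genes (Foxa1, Foxb1, Foxc1, Foxc2, Foxd1, Foxd2, Foxd3, Foxf1, Foxf2, Foxj1, Foxl2, Foxp2 and Foxq1), 9 T-box genes (Tbx1, Tbx2, Tbx4, Tbx5, Tbx6, Tbx15, Tbx18, Tbx20 and Tbr1), 4 basic helix-loop-helix genes (Hand2, Twist1, Twist2 and Tcf21), 4 zinc-finger genes (Wt1, Osr1, Osr2 and Gata5) and Mef2c, which has a MADS box. All 31 were found in the tables by their Ensembl IDs. The list was chosen with earlier results of these data known, which limits every share of members set against that of all genes.

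Forkhead, T-box, Hand, Twist and Osr proteins bind DNA and set the fate of embryonic cells, mostly in mesoderm: heart, limb, kidney, gut wall and connective tissue. In embryonic stem cells many such genes are held silent by Polycomb repressive complex 2 (PRC2), which trimethylates histone H3 on lysine 27 at CpG-rich promoters. Its catalytic subunit is EZH2 or EZH1, and SUZ12 and EED are the other core subunits; EZH2 also methylates itself, and the series asks about that automethylation and about PRC2 dimers. Retinoic acid drives stem cells out of pluripotency, and many of these developmental genes are then switched on.

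RNA of mouse embryonic stem cells was counted by 3′ end sequencing (QuantSeq, 1 tag region per transcript end) in 54 libraries that form 2 series, with 3 libraries in each group and 9 groups in each series. In the Ezh2 series every line is labelled Ezh1-/-;Ezh2-/-, and the lines carry a PiggyBac transposon with Ezh2 mutated at 3 lysines (K510R, K514R and K515R; amKR), an empty PiggyBac (EV) or PiggyBac with Ezh2 (WT). In the Suz12 series every line is labelled SUZ12-/- and carries PiggyBac SUZ12-deltadim (ddim), empty PiggyBac (EV) or PiggyBac SUZ12 (WT). Each line was sampled undifferentiated in LIF, CHIR99021 and PD0325901 (day 0) and after 1 and 4 days in 0.1 µM retinoic acid with those agents withdrawn. "WT" therefore means a rescued knockout line, not an unmodified cell; the labels do not say whether a line is a clone or a pool, nor whether the 3 libraries of a group came from separate cultures, so p-values measure only the spread between these libraries.

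Levels are given as CPM, the counts of a gene scaled to the library size used in the fit. That size is the gene counts of the library multiplied by its normalisation factor (TMM). Over both fits by series, the factors lay between 0.8989 and 1.094. Libraries held 4223028 to 5111007 gene counts (Ezh2 series) and 3801446 to 4462441 (Suz12 series). A total of 3 counts over a whole group, the limit used for a gene without counts, came to between 0.1983 and 0.2591 CPM. This limit was taken on all gene counts without the factor, so bounds on a fold are approximate. A fold against the limit takes the mean of the other group as it stands. Where that mean is low, its own counting error can bring the true fold below the bound. Summed levels of 10 pluripotency genes were 4992 to 6264 CPM on day 0 of the Ezh2 series and 3239 to 4002 CPM on day 0 of the Suz12 series, and 131 to 188 CPM and 83.2 to 133 CPM on day 4. On day 1 the same sum was still 2271 to 2644 CPM in the Ezh2 series but 167 to 295 CPM in the Suz12 series. Summed extraembryonic endoderm markers (15 genes) reached 7107 to 9500 CPM and 9677 to 12247 CPM on day 4 of the Ezh2 and Suz12 series, and 11 fibroblast markers reached 1653 to 2508 CPM and 5408 to 7603 CPM. These are bulk samples, so fewer cells of a type and less RNA per cell cannot be told apart.

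The targeted genes were looked at first. Suz12 averaged 461 ± 26.9 CPM in ddim, 68.1 ± 4.97 CPM in EV and 439 ± 8.62 CPM in WT libraries on day 0 (SD, n = 3 each, here and below). In the Ezh2 series, Ezh2 averaged 117 ± 4.15 CPM in amKR, 183 ± 16.9 CPM in EV and 88.3 ± 0.66 CPM in WT libraries on day 0. Ezh1 was 0 to 0.648 CPM in the amKR libraries of all days, 5.15 to 10.6 CPM in the EV libraries and 0 to 0.445 CPM in the WT libraries, although all 3 lines carry the same Ezh1-/- label. Tags at the 3′ end do not show whether an exon upstream was deleted, so these counts check neither deletion. The libraries labelled EV in the Ezh2 series thus differ from both rescued lines in Ezh1 tags as well as in the transposon. The median log2 change of the 721 genes tested on chromosome 6 was -0.27, -0.25 and -0.33 for EV against WT on days 0, 1 and 4. For amKR against WT it was -0.18, -0.09 and -0.15. Foxp2 is the member on chromosome 6, and what lies behind this shift was not tested. These differences cannot be told apart in any comparison with EV below. Nor can those between amKR and WT in Ezh2 level and chromosome 6 be told apart from the mutated lysines.

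The promoters of 6 of the genes are printed, picked by whether they were called higher in EV cells. CpG-rich promoters are known as sites of PRC2 in mouse embryonic stem cells. Foxc1, Tbx20, Foxd1 and Twist1 were those called higher in EV most often over both series among the genes with a promoter at hand (ties by the smaller adjusted p); Hand2 and Tbx18 were never called higher in EV and had the most counts among such genes. In the Suz12 series Foxc1, Foxd1 and Twist1 were also called lower in EV, on 2, 2 and 1 of the days. Hand2 was called lower in EV on 1 day of each series, and Tbx18 was called in no EV comparison with WT. Sequences are from RefSeq on GRCm38.p6, from 250 bases before to 50 bases after the start of the gene, 5′ to 3′ on the strand of the gene, with each CG dinucleotide in capitals. They lie at chr13:31806396-31806695 (Foxc1, plus strand), chr9:24774254-24774553 (Tbx20, minus strand), chr13:98353995-98354294 (Foxd1, plus strand), chr12:33957421-33957720 (Twist1, plus strand), chr8:57320733-57321032 (Hand2, plus strand) and chr9:87731211-87731510 (Tbx18, minus strand).
Foxc1: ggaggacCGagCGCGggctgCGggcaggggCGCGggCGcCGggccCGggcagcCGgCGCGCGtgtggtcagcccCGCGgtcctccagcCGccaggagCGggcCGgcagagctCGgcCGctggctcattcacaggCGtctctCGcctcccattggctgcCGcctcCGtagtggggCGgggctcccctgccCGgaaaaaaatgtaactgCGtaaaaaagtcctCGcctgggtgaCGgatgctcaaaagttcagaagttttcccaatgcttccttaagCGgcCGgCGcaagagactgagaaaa
Tbx20: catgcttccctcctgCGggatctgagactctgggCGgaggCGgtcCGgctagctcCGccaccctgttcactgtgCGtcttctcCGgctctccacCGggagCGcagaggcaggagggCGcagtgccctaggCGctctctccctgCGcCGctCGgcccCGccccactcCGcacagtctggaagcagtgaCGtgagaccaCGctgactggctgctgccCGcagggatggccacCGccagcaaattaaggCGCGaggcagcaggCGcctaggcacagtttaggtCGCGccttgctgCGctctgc
Foxd1: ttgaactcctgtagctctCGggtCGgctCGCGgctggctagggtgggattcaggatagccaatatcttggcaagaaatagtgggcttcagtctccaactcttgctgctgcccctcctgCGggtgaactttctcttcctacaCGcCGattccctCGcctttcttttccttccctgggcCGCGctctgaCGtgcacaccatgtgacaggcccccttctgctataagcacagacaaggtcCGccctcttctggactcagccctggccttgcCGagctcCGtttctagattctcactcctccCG
Twist1: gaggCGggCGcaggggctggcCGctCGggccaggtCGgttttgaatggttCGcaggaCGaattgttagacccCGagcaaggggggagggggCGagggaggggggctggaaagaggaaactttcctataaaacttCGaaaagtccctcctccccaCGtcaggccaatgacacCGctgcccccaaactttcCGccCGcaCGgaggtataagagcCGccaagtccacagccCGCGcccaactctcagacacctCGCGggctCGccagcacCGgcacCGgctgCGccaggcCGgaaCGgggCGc
Hand2: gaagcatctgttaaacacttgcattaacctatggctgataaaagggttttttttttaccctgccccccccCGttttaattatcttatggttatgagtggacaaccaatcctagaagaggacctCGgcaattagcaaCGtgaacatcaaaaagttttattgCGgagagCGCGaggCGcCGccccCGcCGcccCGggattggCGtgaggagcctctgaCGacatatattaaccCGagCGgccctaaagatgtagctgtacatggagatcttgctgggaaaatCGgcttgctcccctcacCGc
Tbx18: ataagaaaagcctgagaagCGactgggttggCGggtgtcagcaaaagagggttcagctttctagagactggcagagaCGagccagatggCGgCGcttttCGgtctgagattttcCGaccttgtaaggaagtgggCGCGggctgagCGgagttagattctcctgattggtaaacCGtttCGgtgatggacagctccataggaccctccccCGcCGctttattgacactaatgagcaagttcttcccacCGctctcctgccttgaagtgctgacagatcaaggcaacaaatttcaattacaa
Foxc1 had 32 CG dinucleotides in the 300 bases, Twist1 27, Tbx20 26, Hand2 17, and Foxd1 and Tbx18 15 each. CG reads the same on both strands. Promoters were at hand for 19 of the 31 genes, 22 promoters in all, with a median of 21 CG dinucleotides and a range of 1 (a Mef2c start) to 32; 68.2% of them held 15 or more, against 34.6% of the 32851 promoters of all genes, whose median was 7. Among genes called higher in EV in at least 1 comparison, the CG counts ran from 1 (a Mef2c start) to 32 (Foxc1). Among tested genes never called higher they ran from 15 (Tbx18) to 27 (Foxf2). Tbx6 and Tbr1, with 7 each, were not tested in either series.

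Several of the genes are neighbours on mm10. Foxf1 (chr8:121084386-121088144) and Foxc2 (chr8:121116171-121118895) are 28.0 kb apart, Tbx2 and Tbx4 on chromosome 11 are 44.5 kb apart, and Foxq1 (chr13:31556134-31560976), Foxf2 and Foxc1 (chr13:31806633-31812476) follow each other on chromosome 13 with gaps of 64.8 and 175.2 kb. Exons of Foxq1 overlap an opposite-strand gene over 66.1% of their length and exons of Twist2 and Hand2 overlap antisense genes over 46.5% and 19.6%; counting by strand is not stated. The overlapping partners had few counts of their own, 0 in every library for the partner of Foxq1 and at most 95 over the 27 libraries of a series for that of Hand2.

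**Figure D1:**
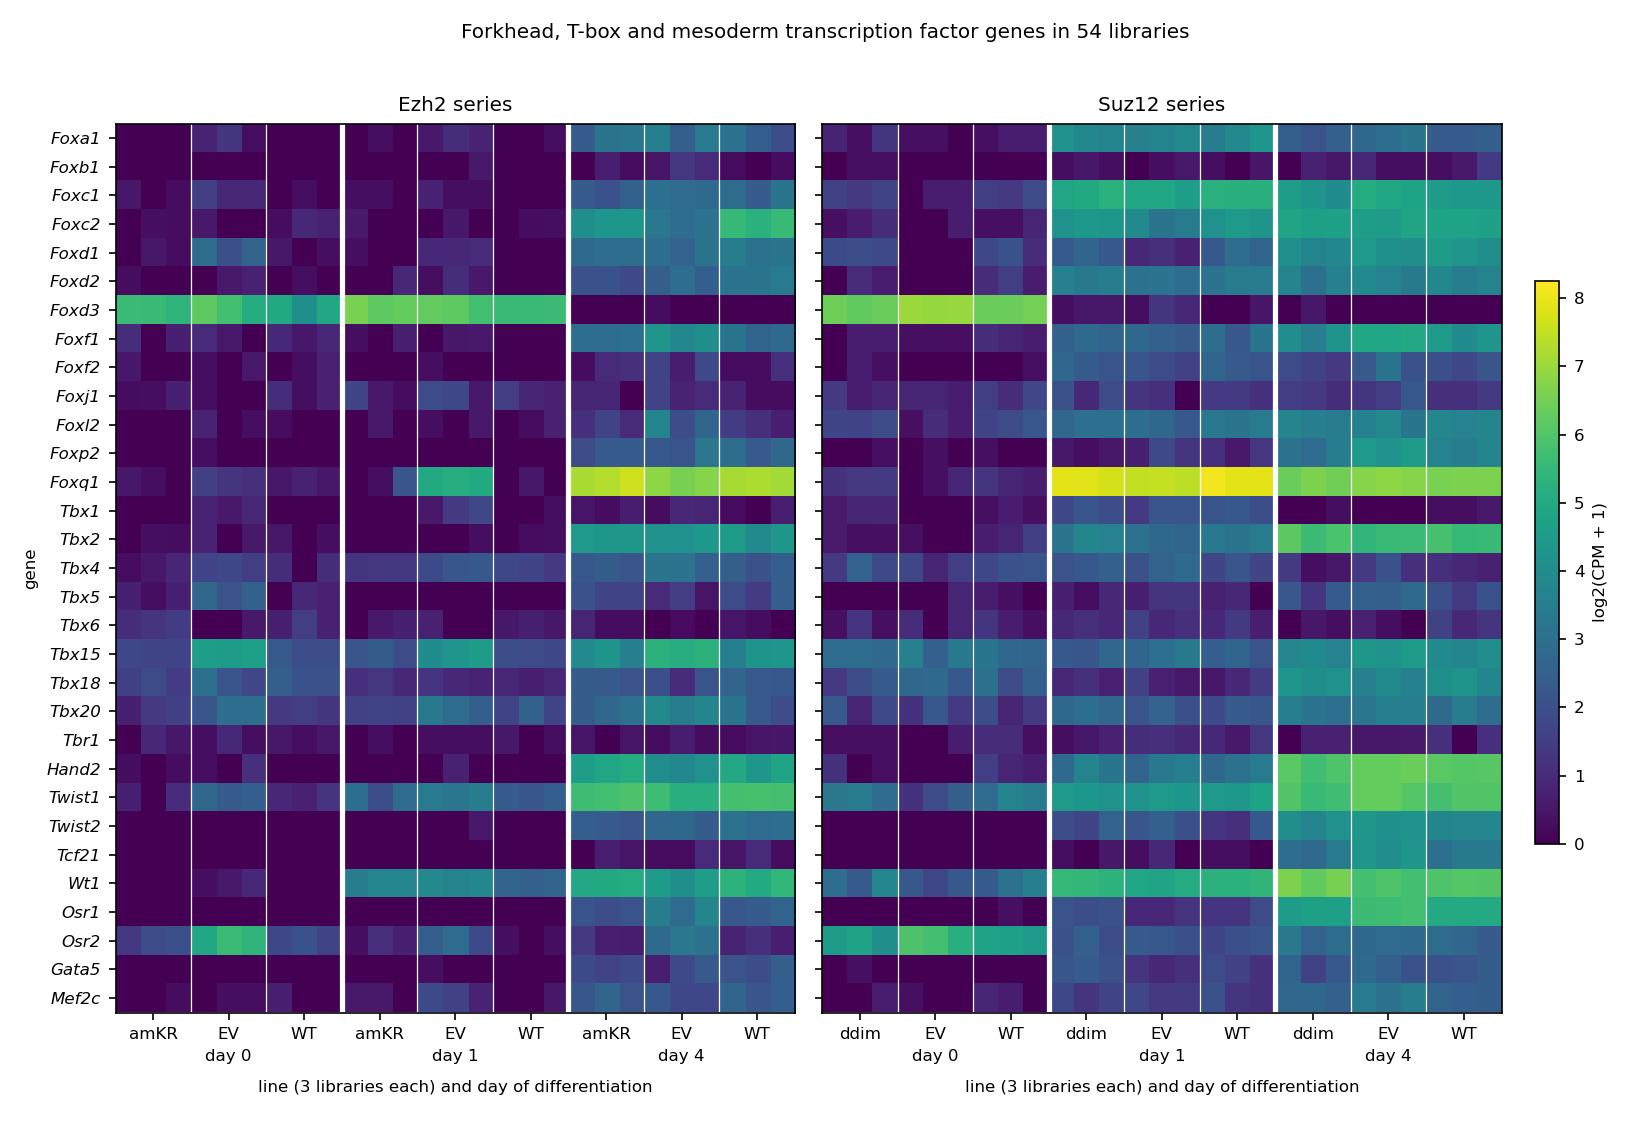
Level of each of the 31 genes (rows) in each of the 54 libraries (columns, grouped by line and day; amKR or ddim, EV and WT from left to right within a day), as log2(CPM + 1). Foxd3 is bright on day 0 in every line. Osr2 is bright on day 0 in the Suz12 series and in the EV libraries of the Ezh2 series, and low in amKR and WT there. Most other genes are dark on day 0 and bright on day 4. On day 1 the Suz12 series is already bright for Foxq1, Foxc1, Foxc2 and Wt1.

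The first comparison followed the WT lines through differentiation. In the Ezh2 series, Wt1 (a regulator of kidney, gonad and mesothelium) had 0 CPM in all 3 WT libraries on day 0, 5.17, 4.74 and 5.16 CPM on day 1 and 39.0, 32.1 and 43.1 CPM on day 4. Hand2, needed for the right ventricle and for limb patterning, had no count on day 0 or day 1 and 30.8, 19.7 and 27.4 CPM on day 4. Foxq1 had 0.445, 0.682 and 0.452 CPM on day 0, 0, 0.431 and 0 CPM on day 1, and 142, 149 and 137 CPM on day 4. Twist1, a regulator of mesenchyme and of epithelial-mesenchymal transition, rose too, with 0.89, 0.682 and 1.36 CPM on day 0 and 55.4, 57.0 and 55.7 CPM on day 4. All the day 4 values of these genes lay above all the day 0 values.

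By edgeR's quasi-likelihood test with Benjamini-Hochberg adjustment over all genes (call at adjusted p under 0.05), 21 of the 25 members tested were higher and 2 lower on day 4 than on day 0 in the WT lines of the Ezh2 series, where 29.6% of all 14086 genes were higher and 27.5% lower. The 2 that fell were Foxd3, a forkhead factor of pluripotent cells and neural crest, with no count in any WT library on day 4, against 31.4, 16.4 and 29.2 CPM on day 0 (at least 129-fold lower), and Osr2. Foxj1 and Tbx18 did not pass. A further 7 forkhead genes rose to a mean of 5 CPM or more. Foxc2 had 44.8, 37.5 and 46.9 CPM on day 4, against 0.223, 0.91 and 0.678 CPM on day 0. Foxd1 had 10.3, 7.49 and 8.12 CPM on day 4, against 0.445, 0 and 0.226 CPM on day 0. Foxd2 had 7.75, 8.08 and 9.55 CPM on day 4, against 0, 0.227 and 0 CPM on day 0. All 3 were near or at the floor before differentiation. Foxc1 had 6.59, 4.14 and 8.12 CPM on day 4, against 0, 0.227 and 0 CPM on day 0. Foxf1 had 8.14, 5.32 and 6.09 CPM on day 4, against 0.89, 0.455 and 0.904 CPM on day 0. Foxa1 (7.75, 4.53 and 2.84 CPM) and Foxp2 (6.78, 3.94 and 5.89 CPM) had no count on day 0. In none of these genes did the libraries of the 2 days overlap. Among the T-box genes, Tbx2, a repressor active in heart and limb, reached 21.5, 14.0 and 19.7 CPM on day 4 against 0.445, 0 and 0.226 CPM on day 0, and Tbx15 reached 10.9, 18.3 and 19.3 CPM against 4.01, 2.96 and 2.94 CPM. Twist2 had 7.56, 6.31 and 6.91 CPM on day 4 and no count on day 0. Tbx4, Tbx5, Tbx20, Foxl2, Osr1, Gata5 and Mef2c also rose, all to means under 5 CPM. Setting members without counts in a group to their bound, the median log2 change of the 25 was 4.29, and that of all genes 0.01. Of the 25 members, 8 had no count in 1 of the 2 groups. The filter on low counts took in all groups of a series, so such genes were tested through their counts elsewhere. Their direction was thereby fixed beforehand, here and below, which limits member counts and medians set against those of all genes.

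After 1 day in the Ezh2 series, 4 of 25 members were higher (Wt1, Twist1, Foxd3 and Tbx4) and 4 lower (Osr2, Tbx18, Foxf1 and Tbx5), where 22.3% and 24.2% of all genes were higher and lower. Foxd3 was still high, with 46.3, 47.0 and 49.8 CPM on day 1 against 31.4, 16.4 and 29.2 CPM on day 0 (log2 change 0.89, SE 0.24, adjusted p = 0.00398). The median of the 25 was 0, and the call of Tbx5, with overlapping libraries, rested on 7 counts in all on day 0. It ended without any of 5 single libraries (all but WT replicate 1 of day 0; adjusted p up to 0.094), and that of Tbx4 without WT replicate 2 of day 0 or WT replicate 1 or 2 of day 1 and without a filter (adjusted p up to 0.154).

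In the WT lines of the Suz12 series most members had already changed after a day. On day 1, 19 of the 28 members tested were higher and 3 lower (Foxd3, Osr2 and Tbx18) than on day 0, where 32.8% of all 14442 genes were higher and 29.1% lower. Foxq1 had 273, 237 and 241 CPM on day 1 against 1.34, 0.803 and 0.531 CPM on day 0 (log2 change 8.09, SE 0.17, adjusted p = 1.34e-47). Foxc1, its neighbour on chromosome 13 and a factor of eye, heart and somite development, had 37.2, 37.0 and 37.0 CPM against 1.88, 1.61 and 2.65 CPM. Foxd3 had 0, 0 and 0.422 CPM on day 1 against 83.8, 81.9 and 91.1 CPM on day 0, so that it was already near 0 after a single day. Osr2, an odd-skipped zinc-finger factor of palate and limb joints, had 2.28, 3.01 and 3.38 CPM against 26.9, 25.4 and 21.2 CPM. A further 6 forkhead genes rose to a mean of 5 CPM or more, with no overlap between the days. Foxc2 had 16.9, 20.4 and 18.2 CPM on day 1, against 0.269, 0.268 and 0.796 CPM on day 0. Foxa1 had 10.3, 13.7 and 19.2 CPM on day 1, against 0.269, 0.535 and 0.531 CPM on day 0. Foxd2 had 7.77, 9.25 and 9.29 CPM on day 1, against 1.07, 1.87 and 0.531 CPM on day 0. These were low in all the day 0 libraries. Foxd1 had 3.88, 6.71 and 5.28 CPM on day 1, against 2.42, 3.21 and 1.06 CPM on day 0. Foxf1 had 6.85, 3.7 and 8.24 CPM on day 1, against 1.07, 0.803 and 0.531 CPM on day 0. Foxl2 had 8.91, 8.1 and 9.29 CPM on day 1, against 2.15, 2.68 and 3.72 CPM on day 0. Of the 22 calls 21 held in every alternative (here and below, every alternative whose fit tested the gene). That of Mef2c ended without WT replicate 3 of day 0 or WT replicate 1 of day 1 (adjusted p up to 0.0792).

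Of the non-forkhead genes, Wt1 had 38.1, 37.9 and 41.0 CPM on day 1, against 4.3, 7.49 and 10.6 CPM on day 0. Twist1 had 20.6, 20.1 and 26.6 CPM on day 1, against 6.45, 11.8 and 9.56 CPM on day 0. Tbx2 had 9.14, 8.1 and 9.71 CPM on day 1, against 0.537, 0.803 and 1.86 CPM on day 0. Hand2, with no count in WT libraries of the Ezh2 series on day 1, had 5.94, 7.64 and 9.29 CPM here, against 1.88, 0.803 and 0.531 CPM on day 0. By day 4, 23 members were higher and 3 lower (Foxd3, Osr2 and Tbx4) than on day 0, where 37.1% and 36.5% of all genes were higher and lower; Foxj1 and Tbx1 did not pass. Hand2 then had 69.9, 67.0 and 68.4 CPM. Osr1 had 31.9, 32.2 and 31.6 CPM against 0, 0.268 and 0 CPM on day 0. Tbx2 had 56.4, 44.9 and 47.2 CPM, Twist1 54.7, 63.2 and 63.9 CPM and Wt1 61.5, 66.7 and 64.9 CPM. Foxq1 had 96.0, 97.8 and 98.1 CPM on day 4. Foxc1 had 22.1, 20.0 and 20.0 CPM on day 4 and Foxc2 26.8, 26.3 and 25.6 CPM. Foxd1 had 22.6, 19.3 and 16.3 CPM and Foxf1 20.7, 14.8 and 18.8 CPM. Foxl2 had 13.0, 11.5 and 12.6 CPM, Foxd2 13.3, 10.1 and 11.9 CPM and Foxp2 11.6, 10.3 and 12.6 CPM. The remaining genes at 5 CPM or more were Tbx18 (16.1, 18.3 and 12.8 CPM), Tbx15 (14.7, 12.7 and 15.6 CPM), Tbx20 (6.29, 10.3 and 6.74 CPM), Twist2 (12.8, 13.2 and 13.0 CPM), Tcf21 (6.99, 9.17 and 9.07 CPM) and Osr2, lower than on day 0 at 6.52, 5.64 and 4.19 CPM. The medians over the 28 members at their bounds were 2.59 on day 1 and 3.26 on day 4, against 0.03 and -0.01 over all genes. Members without a count in 1 of the 2 groups, whose direction was fixed beforehand, numbered 3 on day 1 and 4 on day 4.

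The change over the first day differed between the WT lines of the 2 series for 10 of 28 members in a joint fit of all 54 libraries, a test added after the values were seen. Its difference was higher in the Ezh2 series for Foxd3 and Wt1 and lower for Foxq1, Foxc1, Foxc2, Foxf1, Foxf2, Foxd1, Tbx2 and Tbx5, where 25.9% of all 15371 genes were higher and 25.4% lower. Those of Foxd3, Wt1, Foxq1, Foxc2, Foxf1 and Foxf2 held in every alternative. Over the same day the summed pluripotency genes fell to 2271 to 2589 CPM in the WT libraries of the Ezh2 series and to 180 to 195 CPM in those of the Suz12 series. The 2 series also differ in parent line and in whatever else was done apart, which cannot be told apart from the rescue.

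**Figure D2:**
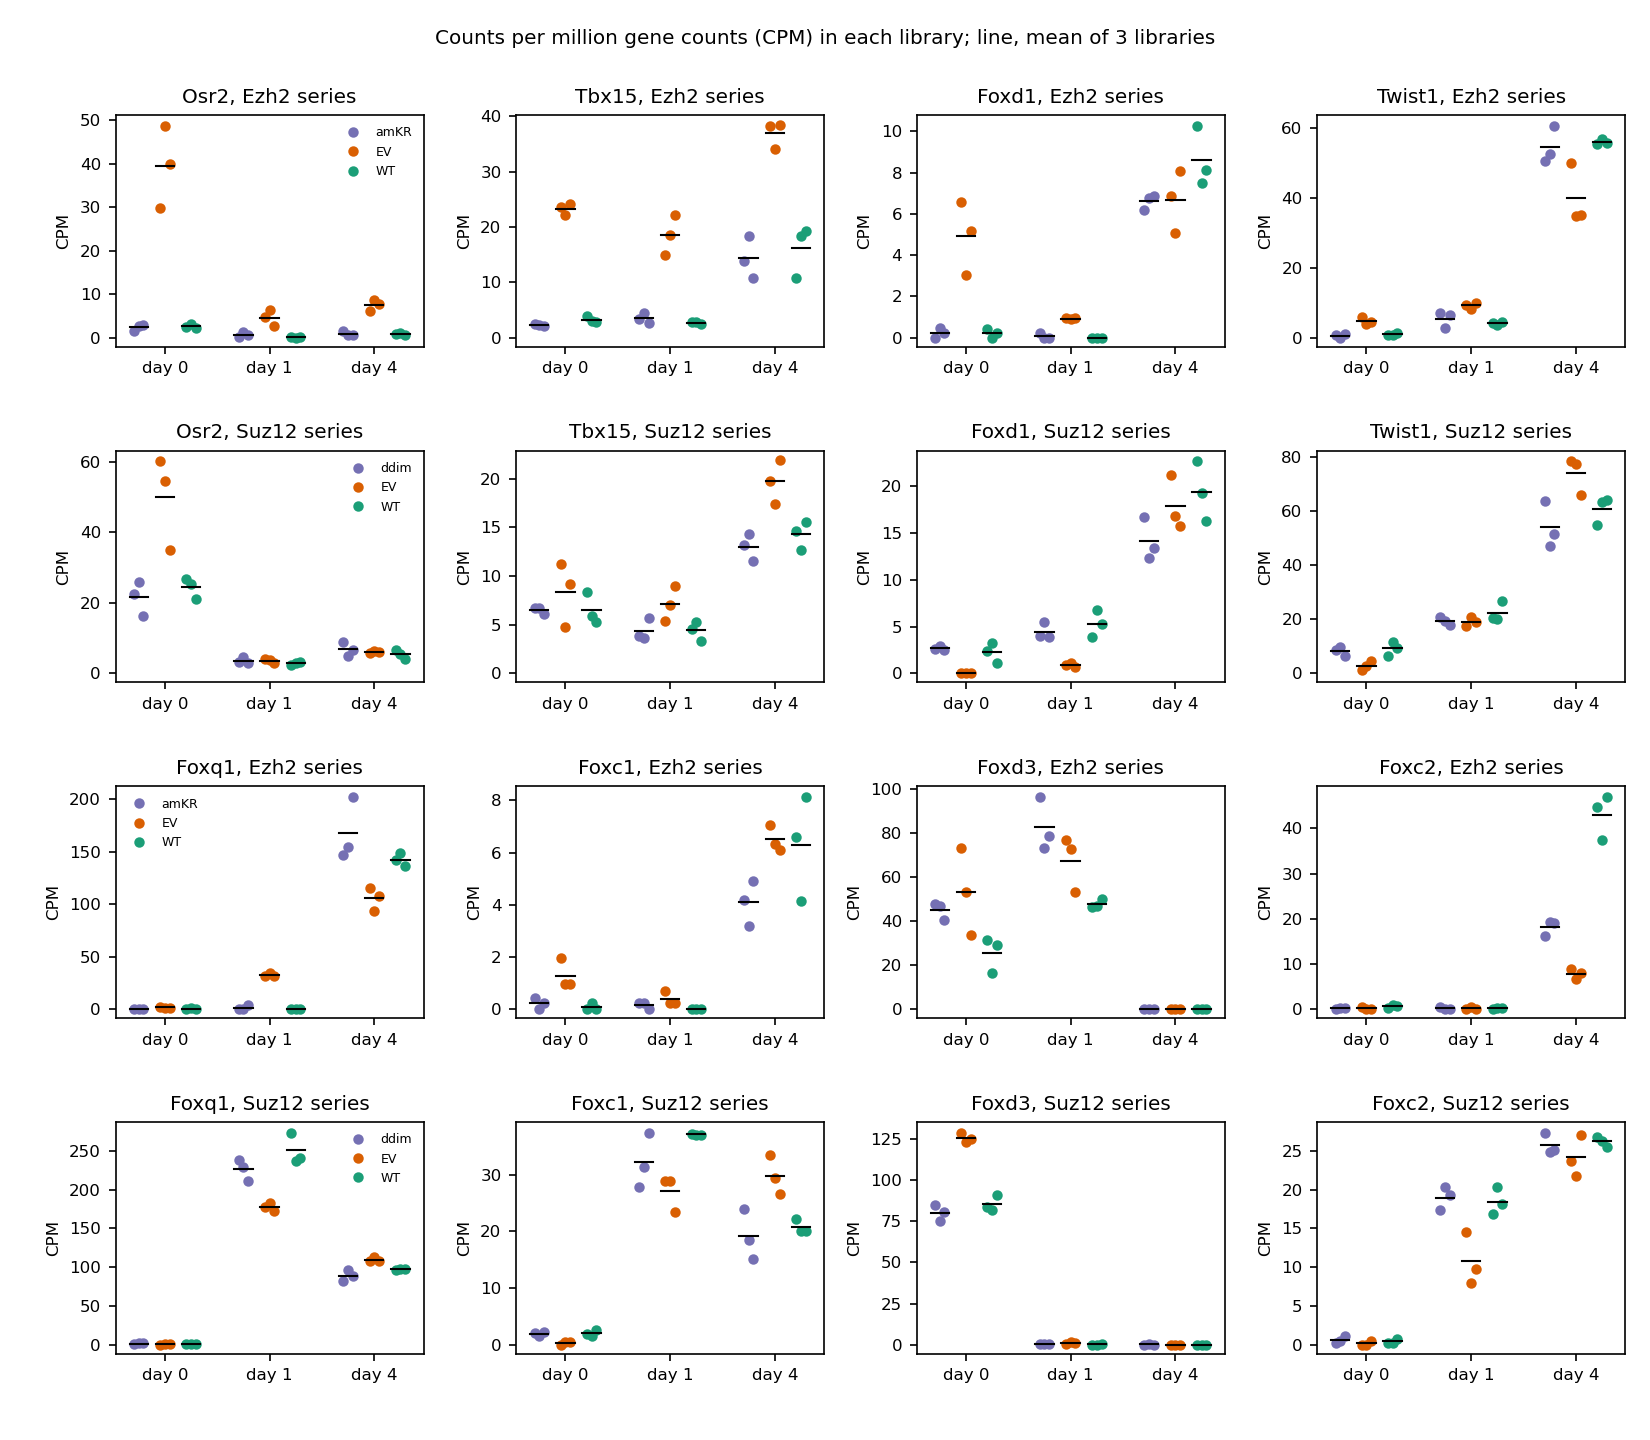
CPM in each library (points; axis from 0 and scaled to each panel) for 8 genes on days 0, 1 and 4, amKR or ddim, EV and WT from left to right within a day; lines are means of 3 libraries. Osr2 and Tbx15 stand above the other lines in the EV libraries of the Ezh2 series, Foxd1 and Twist1 are higher in EV on day 0 of the Ezh2 series and lower in EV on day 0 of the Suz12 series, and Foxc2 on day 4 of the Ezh2 series is lowest in EV, between in amKR and highest in WT.

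The next comparison asked what an empty transposon in place of Ezh2 did to these genes. In undifferentiated cells 11 of the 25 members tested were higher in the libraries labelled EV than in WT and none was lower, where 16.8% of all genes were higher and 12.4% lower. Osr2 had 30.0, 48.7 and 40.0 CPM in EV libraries, against 2.45, 3.18 and 2.26 CPM in WT libraries (log2 change 3.90, SE 0.31, adjusted p = 2.87e-11). Tbx15, a T-box factor of skeletal muscle and skin, had 23.6, 22.1 and 24.3 CPM in EV libraries, against 4.01, 2.96 and 2.94 CPM in WT libraries (log2 change 2.81, SE 0.25, adjusted p = 2.8e-10). Every EV library exceeded every WT library for both genes by several fold.

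The other genes called higher in EV on day 0 were forkhead, T-box, Twist and zinc-finger genes at lower levels. Tbx20, needed for heart development, had 3.65, 6.83 and 6.83 CPM in EV libraries, against 1.56, 1.82 and 1.36 CPM in WT libraries. Foxd3 had 73.1, 53.2 and 33.4 CPM in EV libraries, against 31.4, 16.4 and 29.2 CPM in WT libraries (log2 change 1.05, SE 0.24, adjusted p = 0.00207), with its lowest EV library just above its highest WT library. Foxd1, a marker of kidney stroma, averaged 4.94 ± 1.77 CPM in EV and 0.224 ± 0.223 CPM in WT libraries, 62 counts against 3, a ratio of 21.4 with an exact interval for counting error of 7.01 to 107 (95%). Twist1 averaged 4.77 ± 0.957 CPM in EV and 0.977 ± 0.345 CPM in WT libraries, and Tbx5, a heart and forelimb factor, 4.61 ± 1.19 CPM and 0.529 ± 0.473 CPM. Tbx4, its hindlimb counterpart, averaged 2.14 ± 0.239 CPM in EV and 0.748 ± 0.648 CPM in WT libraries, and Foxc1 1.28 ± 0.581 CPM and 0.0758 ± 0.131 CPM. Foxa1, a pioneer factor of endoderm, and Wt1 had 0.793 ± 0.591 CPM and 0.552 ± 0.356 CPM in EV libraries and no count in WT libraries. These EV means were 3.51-fold and 2.44-fold the limit of the WT group, without their own counting error. The calls of Foxa1 and Wt1 ended without EV replicate 2 (adjusted p = 0.0855) and without EV replicate 3 (adjusted p = 0.0577), and that of Tbx4 without EV replicate 1 or 2 or WT replicate 2, with adjusted p up to 0.184. The call of Tbx4 also ended without a filter on low counts (adjusted p = 0.0826). Hand2, without a count in WT libraries, was higher in EV but did not pass (adjusted p = 0.0515). It passed with DESeq2, without a filter on low counts, with an offset by chromosome and without EV replicate 2 (adjusted p from 0.0245 to 0.0473). The median log2 change of the 25 members, at their bounds where a group had no count, was 1.29, and that of all genes 0.04. Summed fibroblast markers were 98.9 to 129 CPM in EV and 136 to 178 CPM in WT libraries on day 0, with Acta2, Dcn and Postn at 0 in both, and pluripotency genes 5580 to 6264 CPM and 4992 to 5660 CPM. Trophectoderm markers (8 genes) were 149 to 189 CPM in EV and 213 to 235 CPM in WT libraries, and neural markers (8 genes) 58.5 to 61.9 CPM and 49.1 to 55.3 CPM; the part of these lists in the changes was not tested.

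On day 1, 10 of 25 members were higher in EV than in WT libraries and none was lower, where 13.2% of all genes were higher and 7.64% lower. Foxq1, a forkhead gene of hair and stomach, had 31.4, 33.9 and 31.1 CPM in EV libraries, against 0, 0.431 and 0 CPM in WT libraries, which is 414 counts against 2 and a ratio of 212 (exact interval 58.2 to 1752; adjusted p = 1.69e-10). Tbx15 again stood out, with 15.0, 18.5 and 22.3 CPM in EV libraries, against 2.92, 2.8 and 2.47 CPM in WT libraries (log2 change 2.75, SE 0.26). Wt1 had 13.8, 12.0 and 13.2 CPM in EV libraries, against 5.17, 4.74 and 5.16 CPM in WT libraries (log2 change 1.37, SE 0.22, adjusted p = 3.62e-05). Twist1 had 9.36, 8.36 and 10.1 CPM in EV libraries, against 4.27, 3.66 and 4.49 CPM in WT libraries. Tbx20 had 9.13, 6.55 and 4.55 CPM in EV libraries, against 2.25, 4.74 and 2.24 CPM in WT libraries, which overlap.

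Osr2 averaged 4.55 ± 1.85 CPM in EV and 0.15 ± 0.13 CPM in WT libraries on day 1, with every EV library above every WT library. Mef2c, a MADS-box factor of heart and skeletal muscle, averaged 1.78 ± 0.955 CPM in EV and 0.15 ± 0.259 CPM in WT libraries. Foxd1, Foxd2 and Foxc1 were at 0.932, 0.614 and 0.389 CPM in EV libraries and had no count in WT libraries. These EV means were 4.35-fold, 2.87-fold and 1.82-fold the limit of the WT group, without their own counting error. The calls of Foxd2 and Tbx20 ended without any of 4 single libraries (EV replicate 2 or any WT replicate for Foxd2; EV replicate 1 or 2 or WT replicate 1 or 3 for Tbx20), with adjusted p up to 0.149 and 0.22, and that of Foxc1 without any of the 6. The call of Foxc1 also ended with DESeq2, without a filter on low counts and with an offset by chromosome (adjusted p = 0.0811, 0.117 and 0.0557). The median of the 25 at their bounds was 0.69, and that of all genes 0.07. Summed extraembryonic endoderm markers were 972 to 1165 CPM in EV and 769 to 855 CPM in WT libraries, with 13 of the 15 genes called higher in EV. Fibroblast markers were 250 to 274 CPM in EV and 150 to 174 CPM in WT libraries, with 4 of the 8 tested called higher, trophectoderm markers 139 to 151 CPM and 97.2 to 106 CPM, with 4 of 7 called higher, and neural markers 46.0 to 49.4 CPM and 59.4 to 68.3 CPM; their part in the changes was not tested.

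On day 4 the members moved both ways, with 6 of 25 higher in EV than in WT libraries and 3 lower, where 9.62% of all genes were higher and 8.2% lower. Foxc2, a forkhead factor of lymphatic and somite development, had 8.87, 6.7 and 7.88 CPM in EV libraries, against 44.8, 37.5 and 46.9 CPM in WT libraries (log2 change -2.46, SE 0.26, adjusted p = 9.69e-09). Foxf1, its neighbour on chromosome 8 and a factor of lateral and gut-wall mesoderm, went the other way, with 18.5, 13.4 and 16.2 CPM in EV libraries, against 8.14, 5.32 and 6.09 CPM in WT libraries (log2 change 1.29, SE 0.33, adjusted p = 0.00526). Every EV library lay below every WT library for Foxc2 and above every one for Foxf1. The median log2 change of the 744 genes tested on chromosome 8 was -0.11 in this comparison.

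Osr2 had 6.25, 8.69 and 7.68 CPM in EV libraries, against 0.775, 1.18 and 0.609 CPM in WT libraries (log2 change 3.10, SE 0.40). Tbx15 had 38.3, 34.0 and 38.4 CPM in EV libraries, against 10.9, 18.3 and 19.3 CPM in WT libraries. Osr2, Tbx15 and Tbx20 were the 3 members called higher in EV on all 3 days. Tbx20 had 13.7, 10.3 and 12.4 CPM in EV libraries, against 7.95, 3.94 and 2.84 CPM in WT libraries. Foxl2, a factor of ovary and eyelid, had 12.1, 2.9 and 5.52 CPM in EV libraries, against 1.74, 1.18 and 0.609 CPM in WT libraries. Osr1, a marker of intermediate and lateral mesoderm, had 10.3, 6.34 and 12.4 CPM in EV libraries, against 3.68, 4.34 and 5.28 CPM in WT libraries. Wt1 was lower in EV, with 22.2, 16.1 and 23.2 CPM in EV libraries, against 39.0, 32.1 and 43.1 CPM in WT libraries (log2 change -0.89, SE 0.17, adjusted p = 0.000411), and so was Hand2, with 15.3, 13.4 and 16.9 CPM, against 30.8, 19.7 and 27.4 CPM. Twist1 had 50.0, 34.9 and 35.1 CPM in EV libraries, against 55.4, 57.0 and 55.7 CPM in WT libraries, and did not pass (log2 change -0.49, SE 0.19, adjusted p = 0.0683). With the replicate number as a block it did (adjusted p = 0.0488), and same-numbered libraries of these 2 groups deviated together. The calls of Osr1 and Hand2 ended without single libraries (4 for Osr1, namely EV replicate 1 or 3 and WT replicate 1 or 2, and 5 for Hand2, all but WT replicate 2), with adjusted p up to 0.136 and 0.153, and that of Hand2 also with RLE size factors, without robust estimation and with an offset by chromosome. Summed trophectoderm markers were 1369 to 1843 CPM in EV and 798 to 887 CPM in WT libraries on day 4, neural markers were 168 to 222 CPM and 227 to 290 CPM, and fibroblast markers overlapped at 1653 to 2123 CPM and 1697 to 2508 CPM and extraembryonic endoderm markers at 7290 to 9500 CPM and 7107 to 8894 CPM; their part in these changes was not tested.

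**Figure D3:**
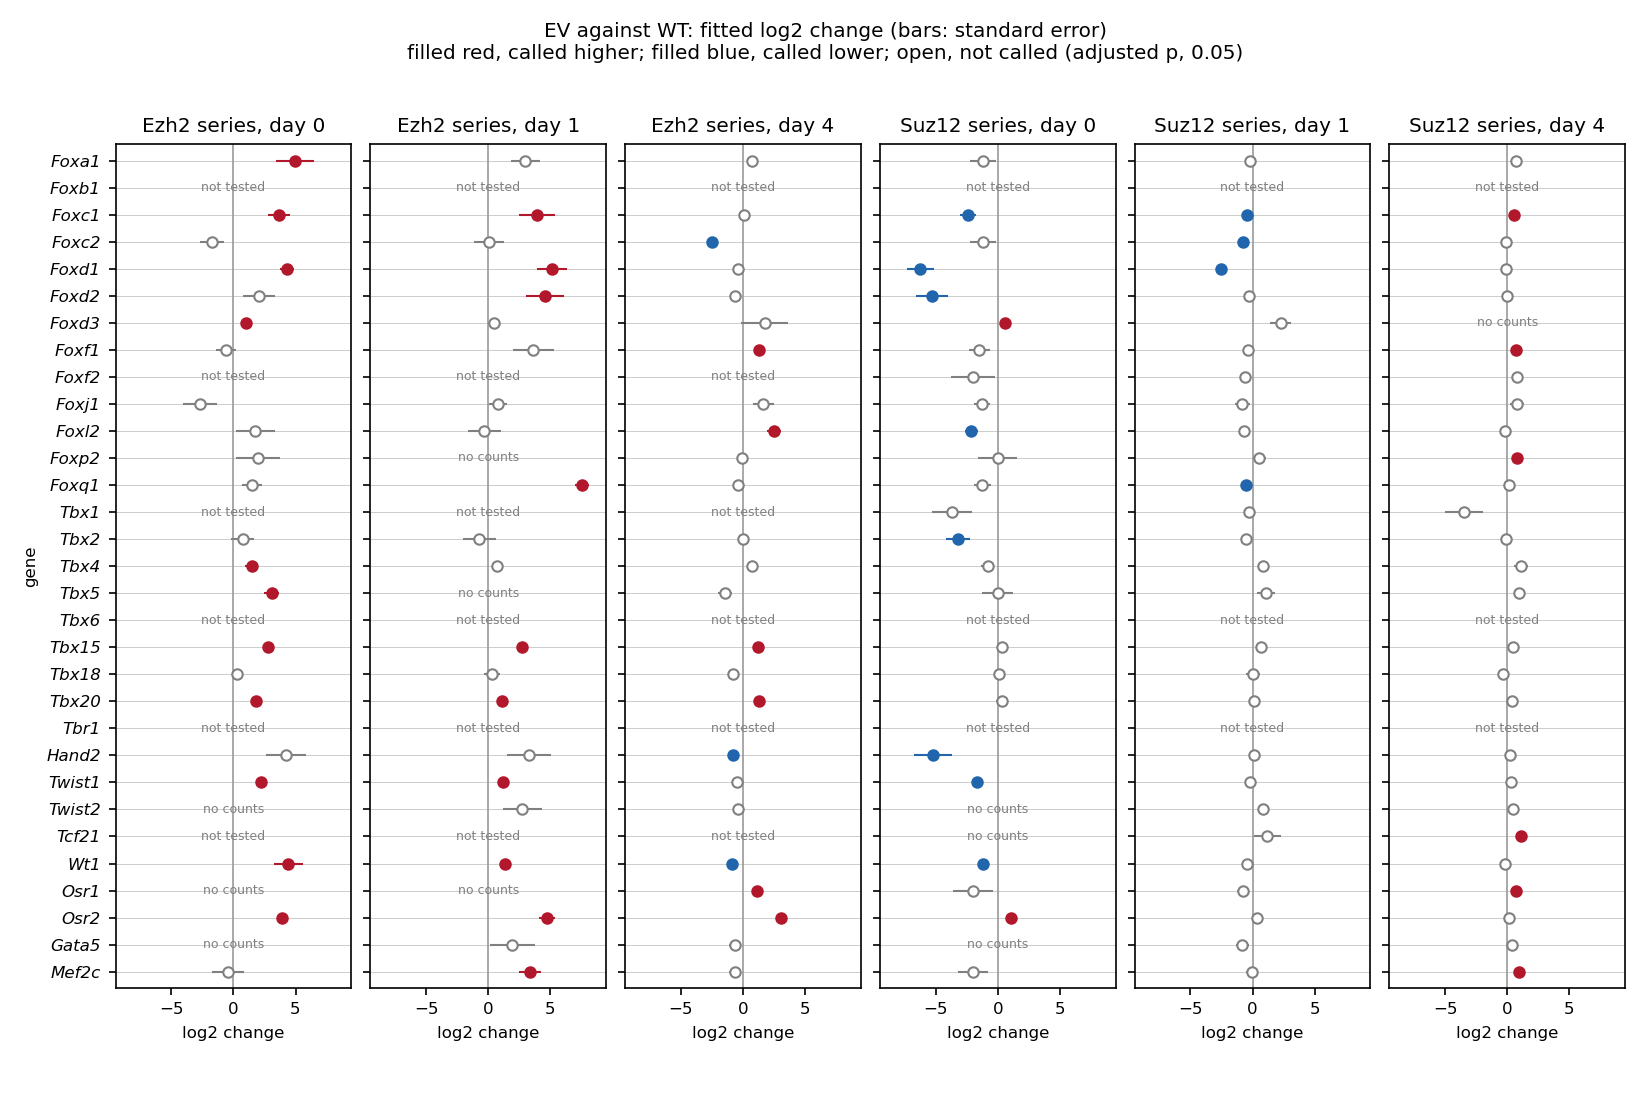
Fitted log2 change of EV against WT (x axis) for each of the 31 genes (rows) on days 0, 1 and 4 of the Ezh2 series (left) and the Suz12 series (right); bars are standard errors, filled points passed adjusted p under 0.05, and points with a group at 0 counts depend on the prior count of the fit. On days 0 and 1 the filled points of the Ezh2 series are all on the right, and those of the Suz12 series are mostly on the left.

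The EV difference changed between day 0 and day 4 for 7 of 25 members of the Ezh2 series, all towards lower values on day 4 (Foxd1, Twist1, Tbx5, Tbx15, Wt1, Foxc1 and Hand2), where 5.08% of all genes had a higher and 7.35% a lower EV difference on day 4. Foxd1 averaged 4.94 ± 1.77 CPM in EV and 0.224 ± 0.223 CPM in WT libraries on day 0, and on day 4 it was called in neither direction (log2 change -0.38, SE 0.30, adjusted p = 0.44). The change of Foxc1 was lost without EV replicate 1 or WT replicate 1 or 3 of day 0 (adjusted p up to 0.0587). That of Hand2 held in 8 of 18 alternatives only, being lost without any of 8 single libraries (all but EV replicates 1 and 2 of day 0, EV replicate 3 and WT replicate 2 of day 4), without robust estimation and with only the libraries compared (adjusted p up to 0.36).

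The line with the 3 mutated lysines was set against WT next, which asks whether these genes change where the automethylation sites are lost. Wt1 on day 1 and Foxc2 on day 4 passed. The 2 lines also differ in Ezh2 level on day 0 and in the chromosome 6 median, which cannot be told apart from the mutated sites. On day 0 none of the 25 members tested was called in amKR against WT by edgeR, where 2.44% of all genes were higher and 2.04% lower; 1 was called by DESeq2, and the same gene alone had an unadjusted p under 0.05. That gene was Foxd3, with 47.9, 46.9 and 40.6 CPM in amKR libraries, against 31.4, 16.4 and 29.2 CPM in WT libraries (log2 change 0.81, SE 0.24, adjusted p = 0.0554). Foxd3 passed under 5 of the alternatives, with adjusted p from 0.000177 to 0.0427. Osr2 averaged 2.42 ± 0.789 CPM in amKR and 2.63 ± 0.488 CPM in WT libraries, and Tbx15 2.28 ± 0.123 CPM and 3.3 ± 0.611 CPM.

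On day 1 a single member, Wt1, was called higher by edgeR in amKR than in WT libraries and none lower, where 1.05% and 0.582% of all genes were higher and lower. Wt1 had 10.2, 13.2 and 13.1 CPM in amKR libraries, against 5.17, 4.74 and 5.16 CPM in WT libraries (log2 change 1.27, SE 0.22, adjusted p = 0.00341), and its amKR libraries overlapped those of EV (13.8, 12.0 and 13.2 CPM). Foxd3 had 96.2, 72.9 and 78.6 CPM in amKR libraries, against 46.3, 47.0 and 49.8 CPM in WT libraries, with adjusted p = 0.0738. It passed with DESeq2, without a filter on low counts, with only the libraries compared and with the replicate block (adjusted p from 0.000417 to 0.0401). Fibroblast markers were 227 to 283 CPM in amKR and 150 to 174 CPM in WT libraries on day 1, extraembryonic endoderm markers 675 to 733 CPM and 769 to 855 CPM, and trophectoderm markers 75.7 to 85.8 CPM and 97.2 to 106 CPM; their part was not tested. On day 4 Foxc2 was the single member called, lower in amKR, and none was higher, where 1.22% of all genes were higher and 0.49% lower. It had 16.1, 19.4 and 19.0 CPM in amKR libraries, against 44.8, 37.5 and 46.9 CPM in WT libraries (log2 change -1.24, SE 0.24, adjusted p = 0.00306). The chromosome 8 median was -0.10 in this comparison. Foxd2 had 3.18, 3.19 and 2.55 CPM in amKR libraries, against 7.75, 8.08 and 9.55 CPM in WT libraries, and did not pass (log2 change -1.50, SE 0.41, adjusted p = 0.0552), though it passed with DESeq2, without a filter on low counts and with only the libraries compared (adjusted p from 0.00822 to 0.0248).

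**Figure D4:**
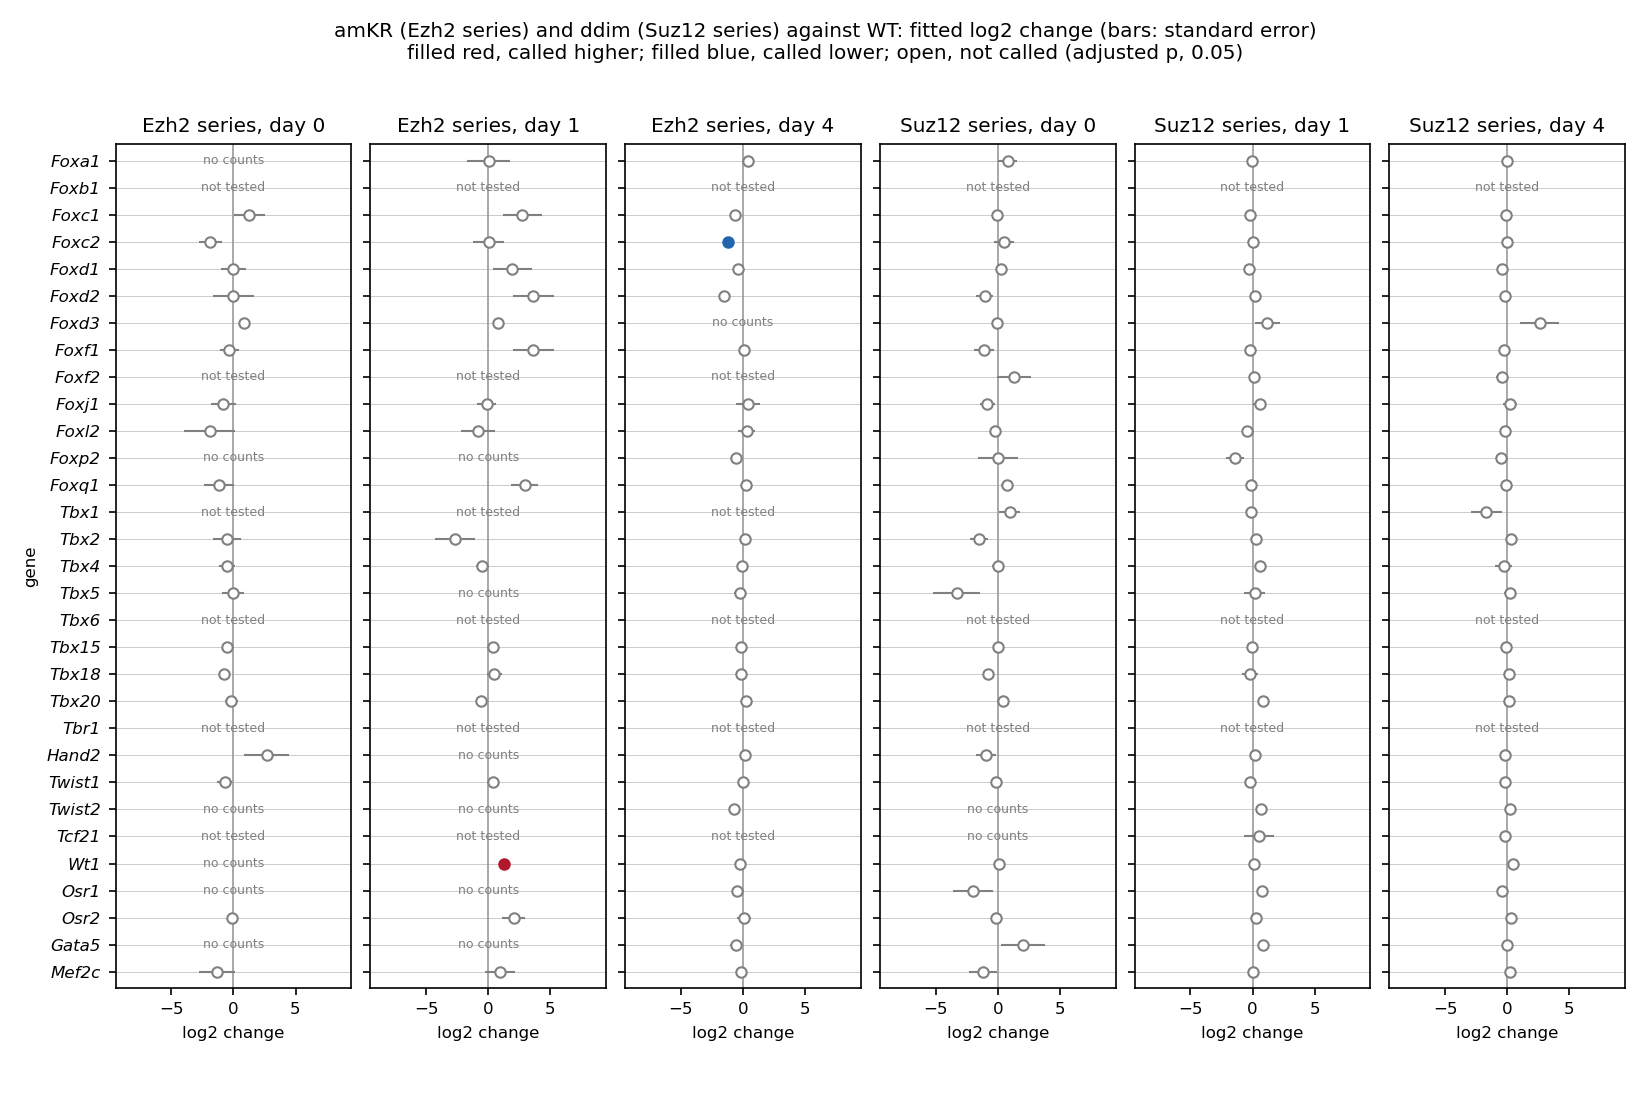
Fitted log2 change of amKR against WT in the Ezh2 series (left) and of ddim against WT in the Suz12 series (right) for each gene on days 0, 1 and 4; bars are standard errors and filled points passed adjusted p under 0.05. The filled points are Wt1 on day 1 and Foxc2 on day 4 of the Ezh2 series; points with a group at 0 counts depend on the prior count of the fit.

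Set against EV, the amKR line was lower for 10 of 25 members on day 0 and higher for none, where 6.4% of all genes were higher and 11.1% lower; it shares its EV libraries with the comparison of EV and WT. Osr2 had 1.53, 2.72 and 3.02 CPM in amKR libraries, against 30.0, 48.7 and 40.0 CPM in EV libraries. Tbx15 had 2.4, 2.27 and 2.16 CPM in amKR libraries, against 23.6, 22.1 and 24.3 CPM in EV libraries. Tbx20 had 0.656, 1.59 and 1.94 CPM in amKR libraries, against 3.65, 6.83 and 6.83 CPM in EV libraries. Foxd1, Twist1, Tbx5, Tbx4, Foxc1, Wt1 and Foxa1 were the other genes, at 0 to 0.579 CPM on average in amKR and 0.552 to 4.94 CPM in EV libraries. The calls of Foxa1 (EV replicate 2 or any amKR replicate), Foxc1 (EV replicate 1 or amKR replicate 2 or 3), Wt1 (EV replicate 3 or amKR replicate 1 or 3) and Tbx4 (amKR replicate 1) ended without the single libraries named, with adjusted p up to 0.117, 0.135, 0.0914 and 0.0782, and that of Foxc1 also with DESeq2 and without a filter. On day 1, 6 were lower and none higher, where 5.35% were higher and 9.4% lower. Foxq1 had 0, 0.244 and 3.54 CPM in amKR libraries, against 31.4, 33.9 and 31.1 CPM in EV libraries. Tbx15 had 3.48, 4.39 and 2.66 CPM in amKR libraries, against 15.0, 18.5 and 22.3 CPM in EV libraries. Tbx20 had 2.09, 2.19 and 1.99 CPM in amKR libraries, against 9.13, 6.55 and 4.55 CPM in EV libraries; Osr2, Foxd1 and Mef2c were the others. The calls of Foxd1 (amKR replicate 2 or 3) and Mef2c (any library but EV replicate 3) ended without single libraries, with adjusted p up to 0.0851 and 0.149.

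On day 4 amKR was higher than EV for 4 members (Foxc2, Wt1, Hand2 and Foxq1) and lower for 6 (Osr2, Tbx15, Osr1, Foxl2, Foxf1 and Tbx20), where 5.27% of all genes were higher and 5.54% lower. Foxc2 had 16.1, 19.4 and 19.0 CPM in amKR libraries, against 8.87, 6.7 and 7.88 CPM in EV libraries (log2 change 1.22, SE 0.26, adjusted p = 0.00165). Its amKR libraries thus lay above all EV and below all WT libraries, and both differences passed. Osr2 had 1.59, 0.599 and 0.589 CPM in amKR libraries, against 6.25, 8.69 and 7.68 CPM in EV libraries. Tbx15 had 13.9, 18.4 and 10.8 CPM in amKR libraries, against 38.3, 34.0 and 38.4 CPM in EV libraries. Foxf1 had 6.96, 6.78 and 7.07 CPM in amKR libraries, against 18.5, 13.4 and 16.2 CPM in EV libraries. Osr1 had 3.38, 2.99 and 3.34 CPM in amKR libraries, against 10.3, 6.34 and 12.4 CPM in EV libraries. Tbx20 had 4.38, 5.59 and 7.66 CPM in amKR libraries, against 13.7, 10.3 and 12.4 CPM in EV libraries. Foxl2 had 1.19, 2.2 and 0.982 CPM in amKR libraries, against 12.1, 2.9 and 5.52 CPM in EV libraries. Of the genes that were higher, Wt1 had 30.2, 31.3 and 32.8 CPM in amKR libraries, against 22.2, 16.1 and 23.2 CPM in EV libraries. Hand2 had 23.9, 27.9 and 33.2 CPM in amKR libraries, against 15.3, 13.4 and 16.9 CPM in EV libraries. Foxq1 had 147, 155 and 202 CPM in amKR libraries, against 115, 93.8 and 108 CPM in EV libraries. The calls of Foxf1, Foxl2, Foxq1, Tbx20, Hand2 and Wt1 ended without single libraries, with adjusted p up to 0.0557, 0.118, 0.225, 0.14, 0.139 and 0.112; for Foxq1 that was any of the 6. That of Foxq1 also ended with RLE size factors, with an offset by chromosome and with the replicate block, and that of Wt1 without a filter.

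The same question was asked of the empty transposon in place of SUZ12. On day 0, 2 of the 28 members tested were higher in EV than in WT libraries (Osr2 and Foxd3) and 8 lower (Foxd1, Twist1, Foxl2, Foxd2, Foxc1, Hand2, Wt1 and Tbx2), where 5.47% of all genes were higher and 5.37% lower. Osr2 had 60.2, 54.5 and 35.1 CPM in EV libraries, against 26.9, 25.4 and 21.2 CPM in WT libraries (log2 change 1.03, SE 0.17, adjusted p = 7.34e-06). Foxd3 had 129, 123 and 125 CPM in EV libraries, against 83.8, 81.9 and 91.1 CPM in WT libraries (log2 change 0.55, SE 0.11, adjusted p = 0.00024). Both were also called higher in EV on day 0 of the Ezh2 series.

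Among the genes that were lower, Twist1 had 1.33, 2.67 and 4.59 CPM in EV libraries, against 6.45, 11.8 and 9.56 CPM in WT libraries (log2 change -1.69, SE 0.30, adjusted p = 3.08e-05). Wt1 had 3.73, 2.4 and 3.78 CPM in EV libraries, against 4.3, 7.49 and 10.6 CPM in WT libraries. Foxd1, Foxd2 and Hand2 had no count in any EV library and averaged 2.23 ± 1.09, 1.16 ± 0.675 and 1.07 ± 0.714 CPM in WT libraries. These WT means were 8.61-fold, 4.48-fold and 4.13-fold the limit of the EV group, without their own counting error. Foxl2 averaged 0.625 ± 0.408 CPM in EV and 2.85 ± 0.798 CPM in WT libraries, Foxc1 0.358 ± 0.31 CPM and 2.05 ± 0.544 CPM, and Tbx2 0.0888 ± 0.154 CPM and 1.07 ± 0.699 CPM. The calls of Foxc1 (without EV replicate 1), Wt1 (without EV replicate 2 or WT replicate 2 or 3), Tbx2 (without EV replicate 2 or 3 or WT replicate 3) and Hand2 (without any EV replicate or WT replicate 1) ended, with adjusted p up to 0.0608, 0.179, 0.186 and 0.109. That of Tbx2 also ended with DESeq2 (adjusted p = 0.0563). The median of the 28 members at their bounds was -0.998, and that of all genes -0.01. Summed fibroblast markers were 405 to 534 CPM in EV and 257 to 277 CPM in WT libraries, extraembryonic endoderm markers 883 to 970 CPM and 741 to 804 CPM, and pluripotency genes 3473 to 4002 CPM and 3461 to 3851 CPM; their part in these changes was not tested.

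On day 1, 4 of 28 members were lower in EV than in WT libraries and none was higher, where 3.86% of all genes were higher and 4.05% lower. Foxq1 had 177, 183 and 172 CPM in EV libraries, against 273, 237 and 241 CPM in WT libraries (log2 change -0.50, SE 0.08, adjusted p = 4.08e-06). Foxd1 had 0.894, 1.14 and 0.694 CPM in EV libraries, against 3.88, 6.71 and 5.28 CPM in WT libraries (log2 change -2.50, SE 0.40). Foxc2 had 14.5, 7.97 and 9.72 CPM in EV libraries, against 16.9, 20.4 and 18.2 CPM in WT libraries. Foxc1 had 28.8, 28.9 and 23.4 CPM in EV libraries, against 37.2, 37.0 and 37.0 CPM in WT libraries. All 4 are forkhead genes. The call of Foxc2 ended without EV replicate 2 (adjusted p = 0.074) and that of Foxc1 without any of the 6 libraries (adjusted p up to 0.202). That of Foxc1 also ended with DESeq2 and with only the libraries compared (adjusted p = 0.0624 and 0.0506). Pluripotency genes summed to 271 to 295 CPM in EV and 180 to 195 CPM in WT libraries on that day, and fibroblast markers to 559 to 576 CPM and 478 to 507 CPM. Extraembryonic endoderm markers summed to 2326 to 2343 CPM in EV and 2883 to 3145 CPM in WT libraries, trophectoderm markers to 449 to 480 CPM and 525 to 595 CPM, and neural markers to 95.6 to 100.5 CPM and 101 to 112 CPM; the part of these lists in the changes was not tested.

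On day 4, 6 of 28 members were higher in EV than in WT libraries and none was lower, where 3.85% of all genes were higher and 3.79% lower. Osr1 had 49.3, 50.5 and 54.5 CPM in EV libraries, against 31.9, 32.2 and 31.6 CPM in WT libraries (log2 change 0.69, SE 0.14, adjusted p = 0.000469). Tcf21, a factor of epicardium and visceral mesoderm, had 18.9, 15.6 and 18.9 CPM, against 6.99, 9.17 and 9.07 CPM (log2 change 1.08, SE 0.26, adjusted p = 0.00365). Foxf1 had 29.3, 28.0 and 30.5 CPM in EV libraries, against 20.7, 14.8 and 18.8 CPM in WT libraries. Foxp2, a factor of brain and lung, had 21.0, 17.2 and 21.9 CPM in EV libraries, against 11.6, 10.3 and 12.6 CPM in WT libraries. Foxc1 had 33.4, 29.4 and 26.6 CPM in EV libraries, against 22.1, 20.0 and 20.0 CPM in WT libraries. Mef2c had 9.68, 7.35 and 10.4 CPM in EV libraries, against 5.13, 4.47 and 4.42 CPM in WT libraries. No EV library overlapped a WT library in these 6 genes. The calls of Osr1 and Tcf21 held in every alternative, and those of Foxf1 (without WT replicate 2), Foxp2, Foxc1 and Mef2c ended without single libraries, with adjusted p up to 0.107, 0.106, 0.156 and 0.168. That of Mef2c also ended with DESeq2 and without a filter on low counts (adjusted p = 0.0734 and 0.0625). Osr1 and Foxf1 were also higher in EV on day 4 of the Ezh2 series. Summed fibroblast markers were 5408 to 6020 CPM in EV and 6710 to 7309 CPM in WT libraries, and neural markers 136 to 150 CPM and 186 to 207 CPM. Trophectoderm markers were 474 to 534 CPM in EV and 779 to 879 CPM in WT libraries, with 4 of the 7 tested called lower and none higher, and extraembryonic endoderm markers 10650 to 11330 CPM and 11620 to 12247 CPM; the part of these lists in the changes was not tested.

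The EV difference of the Suz12 series changed between day 0 and day 4 for 7 members, all towards higher values on day 4 (Twist1, Foxd1, Foxc1, Foxd2, Hand2, Foxl2 and Tbx2), where 3.52% of all genes had a higher and 3.39% a lower EV difference. The changes of Tbx2, Hand2 and Foxl2 held in 6, 14 and 14 of 18 alternatives, being lost without 9, 4 and 4 single libraries (adjusted p up to 0.248, 0.11 and 0.11). That of Tbx2 was also lost with DESeq2, without a filter and without robust estimation (adjusted p = 0.0911, 0.0679 and 0.0528). Foxd1, Twist1, Foxc1 and Hand2 were called in both series, lower in the Ezh2 and higher in the Suz12 series, which is 4 of the 25 members tested in both, where 0.623% of all genes did so. Of these 4, Foxd1 and Twist1 held in every alternative of both series. The EV difference itself differed between the series for 12 members on day 0, higher in the Ezh2 series for all of them, where 11% of all genes were higher and 8.65% lower. On day 1 it was higher in the Ezh2 series for 10 and lower for none, where 8.69% and 6.94% were higher and lower, and on day 4 it was higher for 2 (Osr2 and Foxl2) and lower for 7 (Foxc2, Twist1, Tbx5, Hand2, Wt1, Mef2c and Foxq1), where 8.49% and 6.72% were higher and lower. Of these differences between series, 8 of 12, 7 of 10 and 4 of 9 held on days 0, 1 and 4 in every alternative that tested the gene. Fewer were called on day 0 with only the libraries compared, a fit that did not test all 12.

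In the line rescued with SUZ12-deltadim, no member passed against WT on any day. On day 0, 0% of all genes were called higher and 0% lower, on day 1 0.0277% and 0.0346%, and on day 4 0.0831% and 0.0692%. The count of 0 members on each day is by edgeR; DESeq2 also called 0, and 1, 3 and 5 members had an unadjusted p under 0.05 on days 0, 1 and 4. Osr2 averaged 21.6 ± 5.02 CPM in ddim and 24.5 ± 2.92 CPM in WT libraries on day 0, Foxd3 80.2 ± 5.06 CPM and 85.6 ± 4.83 CPM, and Twist1 8.21 ± 1.66 CPM and 9.26 ± 2.68 CPM. On day 4 Wt1 had 97.8, 73.6 and 92.7 CPM in ddim libraries, against 61.5, 66.7 and 64.9 CPM in WT libraries, with adjusted p = 0.213; it passed without a filter on low counts and with only the libraries compared (adjusted p = 0.0195 and 0.00211).

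Set against EV, ddim was higher for 7 members on day 0 (Foxd1, Twist1, Foxc1, Wt1, Foxl2, Tbx1 and Foxq1) and lower for 2 (Osr2 and Foxd3), where 5.82% of all genes were higher and 5.86% lower; the EV libraries are shared with the comparison of EV and WT. Osr2 had 22.6, 26.0 and 16.1 CPM in ddim libraries, against 60.2, 54.5 and 35.1 CPM in EV libraries. Foxd3 had 85.0, 74.9 and 80.7 CPM in ddim libraries, against 129, 123 and 125 CPM in EV libraries. Twist1 had 8.57, 9.66 and 6.4 CPM in ddim libraries, against 1.33, 2.67 and 4.59 CPM in EV libraries. Wt1 had 6.76, 4.03 and 13.1 CPM in ddim libraries, against 3.73, 2.4 and 3.78 CPM in EV libraries. Foxd1 and Tbx1, a factor of pharyngeal arches, averaged 2.69 ± 0.236 and 0.72 ± 0.174 CPM in ddim libraries and had no count in EV libraries. These ddim means were 10.4-fold and 2.78-fold the limit of the EV group, without their own counting error. The calls of Foxd1, Foxd3, Twist1 and Osr2 held in every alternative. Those of Tbx1 (all libraries but ddim replicate 1), Foxq1 (EV replicate 1 or 2 or ddim replicate 2 or 3), Foxl2 (EV replicate 1 or 3), Wt1 (EV replicate 2 or ddim replicate 3) and Foxc1 (EV replicate 1) ended without the single libraries named, with adjusted p up to 0.0795, 0.201, 0.0868, 0.205 and 0.0699. Those of Tbx1 and Foxq1 also ended without a filter, and that of Foxq1 with DESeq2.

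On day 1, 7 members were higher in ddim than in EV libraries and none was lower, where 3.34% and 2.94% of all genes were higher and lower. Foxq1 had 237, 229 and 211 CPM in ddim libraries, against 177, 183 and 172 CPM in EV libraries (log2 change 0.35, SE 0.08, adjusted p = 0.00163). Foxc2 had 17.4, 20.3 and 19.3 CPM in ddim libraries, against 14.5, 7.97 and 9.72 CPM in EV libraries. Wt1 had 44.0, 42.9 and 39.2 CPM in ddim libraries, against 27.9, 27.3 and 33.1 CPM in EV libraries. Tbx2 had 8.03, 12.8 and 11.6 CPM in ddim libraries, against 7.37, 5.69 and 5.32 CPM in EV libraries. Foxd1, Osr1 and Gata5, a factor of endocardium, were the other 3, at 3.16 to 4.45 CPM on average in ddim and 0.909 to 1.14 CPM in EV libraries. Without single libraries the calls of Foxc2, Tbx2, Wt1, Osr1 and Gata5 ended, and those of Foxd1 and Foxq1 did not.

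On day 4 ddim was higher than EV for 2 members and lower for 9, where 5.5% of all genes were higher and 5.89% lower. Osr1 had 22.3, 24.6 and 24.9 CPM in ddim libraries, against 49.3, 50.5 and 54.5 CPM in EV libraries (log2 change -1.10, SE 0.14, adjusted p = 4.16e-08). Foxp2 had 7.42, 6.38 and 9.95 CPM in ddim libraries, against 21.0, 17.2 and 21.9 CPM in EV libraries (log2 change -1.34, SE 0.24). Foxf1 had 15.5, 10.5 and 18.1 CPM in ddim libraries, against 29.3, 28.0 and 30.5 CPM in EV libraries. Tcf21 had 6.72, 6.15 and 9.27 CPM in ddim libraries, against 18.9, 15.6 and 18.9 CPM in EV libraries. Foxc1 (23.9, 18.5 and 15.2 CPM in ddim libraries, against 33.4, 29.4 and 26.6 CPM in EV libraries), Twist1 (63.5, 47.2 and 51.3 CPM in ddim libraries, against 78.3, 77.4 and 66.1 CPM in EV libraries), Foxq1 (82.1, 96.7 and 88.0 CPM in ddim libraries, against 108, 113 and 108 CPM in EV libraries), Foxf2 (2.78, 2.05 and 1.58 CPM in ddim libraries, against 3.92, 8.04 and 3.23 CPM in EV libraries) and Tbx15 (13.2, 14.4 and 11.5 CPM in ddim libraries, against 19.8, 17.5 and 21.9 CPM in EV libraries) were lower too. Wt1 had 97.8, 73.6 and 92.7 CPM in ddim libraries, against 53.7, 62.0 and 54.5 CPM in EV libraries (log2 change 0.63, SE 0.13, adjusted p = 0.000901). Tbx2 had 70.5, 49.5 and 59.7 CPM in ddim libraries, against 41.9, 45.9 and 47.8 CPM in EV libraries. The calls of Osr1, Foxp2, Foxf1, Tcf21 and Wt1 held in every alternative, and the other 6 ended without single libraries, those of Foxf2, Tbx2 and Tbx15 with DESeq2 as well. That of Tbx15 also ended without a filter on low counts (adjusted p = 0.0501).

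Across the 6 comparisons of EV with WT, 19 members were called in at least 1 of the Ezh2 series and 17 in at least 1 of the Suz12 series, where 45.6% and 21.5% of all genes tested were. In both were 14 members, which is 73.7% of the first list and 82.4% of the second, and 13.8% of all genes tested in both series (28.7% and 59.5% of the lists of all genes). Of the 14, 7 were called in the same direction in both series (Foxc2, Foxd3, Foxf1, Hand2, Osr1, Osr2 and Mef2c), 5 in opposite directions (Foxd1, Foxd2, Foxl2, Foxq1 and Twist1), and Foxc1 and Wt1 in both directions within a series, whatever the day; over all genes these shares were 6.3%, 5.69% and 1.86%. The 9 called in none were Foxb1, Foxf2, Foxj1, Tbx1, Tbx6, Tbx18, Tbr1, Twist2 and Gata5. Foxb1, Tbx6 and Tbr1 had too few counts to be tested in either series and stayed at or under 2.1 CPM in every library, and Foxf2, Tbx1 and Tcf21 were tested in the Suz12 series alone. Tbx18, a factor of epicardium and somites, was present in all 54 libraries at 0.457 to 19.2 CPM and was highest in ddim libraries on day 4, at 17.6 ± 1.54 CPM, and Twist2 was highest in EV libraries on day 4 of the Suz12 series, at 18.0 ± 1.53 CPM.

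The other genes of the same families did not follow the members in every case. On day 0 of the Ezh2 series, 9 of 27 other mesoderm transcription factor genes tested were higher in EV than in WT and 4 lower, with Gata6 (log2 change 3.28) and Gata4 (2.02) among the higher and Mef2b (-2.39) among the lower ones; Gata4 and Gata6 also mark extraembryonic endoderm. Of 17 other forkhead genes tested, 2 were higher and 7 lower, with Foxo3 (-0.66) and Foxm1 (-0.79) among the lower, and of 3 other T-box genes 1 was lower (Eomes, -1.04). On day 1 the counts in the same order were 9 higher and 3 lower, 2 and 4, and 1 and 0, with Foxa2 (8.02, a fitted value, since it had no count in WT libraries), Gata6 (4.25) and Gata4 (4.54) higher, and on day 4 they were 5 and 5, 1 and 4, and 0 and 2. In the Suz12 series, EV against WT on day 0 gave 2 higher and 3 lower of 30 mesoderm genes, 3 and 2 of 18 forkhead genes and 1 and 1 of 4 T-box genes, with Foxp1 (-1.26) and Lhx1 lower and Hand1 (2.34) higher. In ddim against WT, 1 of these genes passed on any day (Nr2f2 on day 1, 0.48).

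Lists of changed genes were also deposited by the authors for the Ezh2 series, named for wild type against knockout and against amKR, without a stated test. The authors' deposited table of knockout genes going up held 7 members among 1066 symbols on day 0, 8 among 925 on day 1 and 6 among 549 on day 4. The authors' deposited table of those going down held 0 among 418, 0 among 316 and 1 (Foxc2) among 252; the number of genes the authors tested is not given in the sources used here. Of these 22 entries, 21 were called here in the same direction in EV against WT, and Tbx1 on day 1 was not tested. The authors' deposited table for amKR held Wt1 (up on day 1, among 171 symbols), Foxc2 and Foxd2 (both down on day 4, among 15) and no other member.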

How the data were processed

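RNA 3′ ends of 54 mouse embryonic stem cell libraries were counted per gene. The deposited tables hold raw read counts per Ensembl gene, per the file headers; QuantSeq 3′ libraries and mm10 are given by the labels and the submitters' processing notes, while aligner, counter and strand setting are not given in the sources used here. The authors also deposited lists of gene symbols, used as lists only. Rows that name no gene (no feature, ambiguous, not unique and the like) were left out of library sizes; no-feature reads were 14.55 to 22.75% of reads in the Ezh2 series and 13.35 to 19.83% in the Suz12 series.

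Each series was fitted by itself with edgeR 4.0.16 in R 4.3.3 (TMM, filterByExpr, 1 mean per group over 27 libraries, robust quasi-likelihood test, Benjamini-Hochberg over all genes, call at adjusted p under 0.05), and all 54 libraries together for differences between series. DESeq2 1.42.0, RLE size factors, no filter, a replicate block, an offset by chromosome median, the libraries compared alone and leaving out each library were alternatives. A call was counted as held in every alternative if it passed in each one that tested the gene. The 31 members and the gene lists were chosen with earlier results of these data known. Robust estimation was kept after it was seen to give the counts of an earlier analysis of these files, and the contrast of day 1 changes was added after the values were seen; fits without robust estimation were run as well.

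Members called with a group mean of at least 5 CPM are given per library, others by mean or range. A group without counts was set to 3 counts over the group to bound a fold. The counting error of the other group was left out of this bound. Ratios of few counts have exact 95% intervals, which cover counting error only, since reads carry no molecular identifiers in the sources used here. On counts simulated for EV against WT on day 0, genes were changed by 1 and 2 log2 units. The fit recovered 62.2% and 91% of these genes in the Ezh2 series. For the Suz12 series the shares were 73% and 92.9%. They were not split by level. Of the 31 members, 6 averaged at least 1 CPM in WT libraries on day 0 where Ezh2 was the rescue, and 15 where SUZ12 was. The shares therefore do not give the recovery of members with few counts. Replicate libraries were checked and none agreed within sampling noise (chi-square over degrees of freedom 1.41 to 42.4). The labels pair no libraries. Same-numbered libraries deviated together (correlation above 0.1 in all 3 pairs) in 2 of 36 pairs of groups of the Ezh2 series, EV with WT on day 4 (0.137 to 0.396) and EV on day 0 with EV on day 1 (0.14 to 0.337), and in 0 of 36 of the Suz12 series.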

Additional observations from a re-analysis of the deposited data

Results flagged for a closer look

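Each result here is a difference between 2 effects that passed its own test, a contrast in edgeR's quasi-likelihood fit with Benjamini-Hochberg adjustment over all genes. Values are fitted differences of log2 changes, and where a group had no count they depend on the prior count of the fit.

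The EV effect (EV against WT) was lower on day 4 than on day 0 of the Ezh2 series for Foxd1 (-4.67), Twist1 (-2.74), Tbx5 (-4.53), Tbx15 (-1.62), Wt1 (-5.32), Foxc1 (-3.62) and Hand2 (-4.99), with adjusted p from 9.35e-06 to 0.0439. In the Suz12 series it was higher on day 4 than on day 0 for Twist1 (1.97), Foxd1 (6.12), Foxc1 (2.95), Foxd2 (5.29), Hand2 (5.41), Foxl2 (1.98) and Tbx2 (3.07), with adjusted p from 1.21e-05 to 0.0477.

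The EV effect was higher in the Ezh2 series than in the Suz12 series on day 0 for Foxd1 (10.49), Osr2 (2.82), Twist1 (3.89), Tbx15 (2.39), Foxc1 (6.04), Wt1 (5.56), Hand2 (9.38), Tbx1 (8.43), Foxd2 (7.32), Foxa1 (6.07), Tbx4 (2.25) and Tbx2 (3.90), with adjusted p from 1.91e-10 to 0.0398. On day 1 it was higher in the Ezh2 series for Foxq1 (7.95), Foxd1 (7.60), Wt1 (1.69), Osr2 (4.32), Tbx15 (1.98), Twist1 (1.32), Tbx1 (4.08), Mef2c (3.33), Foxd2 (4.79) and Foxc1 (4.35), with adjusted p from 2.77e-20 to 0.0276. On day 4 the difference was Foxc2 (-2.35), Osr2 (2.94), Foxl2 (2.63), Twist1 (-0.78), Tbx5 (-2.42), Hand2 (-0.99), Wt1 (-0.72), Mef2c (-1.63) and Foxq1 (-0.61), with adjusted p from 1.62e-09 to 0.0292, negative values being lower in the Ezh2 series. The libraries labelled EV in the Ezh2 series differ from their WT libraries in Ezh1 tags and in the median of chromosome 6 as well as in the transposon. These differences cannot be told apart.

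The change from day 0 to day 1 in WT libraries, Ezh2 series minus Suz12 series, was Foxd3 (9.81), Foxq1 (-9.74), Foxc2 (-7.12), Foxf1 (-7.79), Wt1 (5.18), Foxf2 (-8.78), Foxd1 (-4.47), Tbx5 (-5.27), Tbx2 (-3.56) and Foxc1 (-6.09), with adjusted p from 1.1e-18 to 0.0318. This contrast was added after the values were seen. The part of the pluripotency genes, whose sum on day 1 differed between the series, was not tested.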

How the results depend on the processing

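No reported call of a member reversed its direction under any alternative. Members not called in a comparison were not checked for this. Of 390 recomputed counts of called members 359 stayed within 1.5 times the reported count. Of 3257 recomputed log2 changes 2984 kept their call and 273 lost it, 238 of them when 1 library was left out. Fitting only the libraries compared gave 7 called members for EV against WT on day 0 of the Ezh2 series (11 reported), 6 for amKR against EV on day 0 (10), 5 for WT day 1 against day 0 (8), 4 for EV against WT (10) and 4 for ddim against EV (9) on day 0 of the Suz12 series, 1 for ddim against WT on day 4 (0) and 5 for the series difference of the EV effect on day 0 (12). For amKR against WT on days 0, 1 and 4 (0, 1 and 1 reported), the counts were 1, 2 and 2 with only the libraries compared, 1, 2 and 2 with DESeq2, and 1, 3 and 2 without a filter on low counts. Without robust estimation the day 0 count was 1, and without a filter ddim against WT on day 4 gave 1. With only the libraries compared, 193 of the 239 calls were tested, and 191 of these held. A member that a fit did not test counted neither as kept nor as lost. The causes were not tested.

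With the replicate number as a block, amKR against WT gave 1 and 2 members on days 0 and 1; the block changed no other count by over 1.5 times. For EV against WT on day 4 of the Ezh2 series, where same-numbered libraries deviated together, the block gave 10 members (9 reported), with Twist1 added. The block is 1 effect per replicate number shared by all groups of a series, and the labels pair no libraries. It is therefore no paired test of any comparison.

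Leaving out 1 library at a time gave, on days 0, 1 and 4, 10 to 11, 7 to 9 and 7 to 9 members for EV against WT in the Ezh2 series, 0, 1 and 1 for amKR against WT, 7 to 10, 4 to 6 and 5 to 8 for amKR against EV, 7 to 9, 2 to 5 and 2 to 5 for EV against WT in the Suz12 series, 0 on each day for ddim against WT and 5 to 10, 2 to 6 and 6 to 10 for ddim against EV. The WT changes gave 6 to 8 and 23 (Ezh2 series, days 1 and 4) and 21 to 23 and 26 (Suz12 series), the EV effect on day 4 minus day 0 gave 5 to 7 in either series, the series differences gave 10 to 13, 7 to 10 and 6 to 10, and the added contrast 8 to 12.

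Over all genes, the counts called for amKR against WT were 631 on day 0 (1022 with DESeq2) and 230 on day 1 (473 with DESeq2, 501 without a filter), and for ddim against WT 9 on day 1 (14 with DESeq2, 61 without a filter) and 22 on day 4 (48 without a filter). Members under about 1 CPM rest on a few counts per library.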
